A study of Mus musculus with 4 samples.

Results

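The genes described here are 10 genes best known from cells other than muscle fibres, above all the endothelial cells that line blood vessels, together with signals that pass between vessels, stem cells and fibres: Vegfa, Kitl, Flt1, Kdr, Tek, Tie1, Adgrl2, Cdh5, Pecam1 and Thbd. They are 10 of 21887 protein-coding genes, and they were listed with the peak lists of this series already known, so the presence or absence of a peak at them is a description and not a test. Every peak overlapping the annotated RefSeq gene body or the 5 kb on either side of it was counted as a peak at the gene. The peaks come from CUT&RUN, in which an antibody leads a nuclease to its target and the released DNA is sequenced, on the gastrocnemius of 4-week-old male C57BL/6 mice. The groups were KO PHF2 and KO IgG (Phf2 flox/flox;Acta1 Cre+), and Ctrl PHF2 and Ctrl IgG (Phf2 flox/flox;Acta1 Cre-), with 1 library each. All 4 groups therefore carry floxed Phf2, and IgG is the antibody with no set target that shows the background. Acta1-Cre is active in muscle fibres, so other cells of KO muscle, endothelial cells among them, are not targeted by this Cre. Whole muscle was assayed, and a peak cannot be assigned to a cell type. Peak lists hold no RNA levels, so neither the tissue nor the cell type named for these genes could be checked against marker expression.

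PHF2 is a chromatin protein whose PHD finger binds the methylated histone H3 found at active promoters and whose JmjC domain is of the histone demethylase kind. VEGF-A, made by fibres and other cells, acts on the receptors FLT1 and KDR of endothelial cells and is the main signal for capillary growth in muscle. Angiopoietins act through the receptor encoded by Tek, with Tie1 as its partner, to keep vessels stable, and VE-cadherin and PECAM1 hold endothelial cells together. KIT ligand, made by endothelial and stromal cells, supports stem cells and mast cells that carry KIT.

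A PHF2 peak was present at 6 of the 10 genes, where 7.52% of all protein-coding genes had one by the same rule. In the KO PHF2 list 3 of the 10 had a peak (Kitl, Adgrl2 and Thbd), and 0.713% of all genes did. In the Ctrl PHF2 list 4 of the 10 had a peak (Vegfa, Flt1, Adgrl2 and Cdh5), and 7.38% of all genes did. Adgrl2 alone was in both lists, as were 0.576% of all genes. Kitl and Thbd were in the KO list only (0.137% of all genes), and Vegfa, Flt1 and Cdh5 in the Ctrl list only (6.8% of all genes). Kdr, Pecam1, Tek and Tie1 had none. Because these lists chose the genes, nothing is read from the shares.

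The 6 genes held 10 PHF2 peaks, 4 from the KO list of 161 and 6 from the Ctrl list of 1621. The KO IgG list of 152 peaks and the Ctrl IgG list of 77 peaks had 0 peaks at any of the 10 genes, where 0.155% and 0.064% of all genes had one. No other protein-coding gene lay within 5 kb of any of the 10 peaks. Of the 10 summits, 8 lay inside the gene body and 7 within 1 kb of one of its ends. With 1 library a group there is no replicate check, and each statement is about these libraries. Read totals are unknown. Fold enrichment is the authors' value for each peak, the signal at the summit over the peak caller's background there. It is read only within its own list. The number of sequenced tags (fragments) under each summit was inferred from the authors' values, on the assumption that the usual MACS2 formulas and 1 scaling factor per library apply, and carries an exact Poisson 95% interval that covers counting error only. The lowest number of tags at any summit was 10 in the KO PHF2 list and 8 in the Ctrl PHF2 list, and the median was 15 in both. The lowest background inferred in the same way was 0.343 in KO PHF2 and 0.361 in Ctrl PHF2, and many peaks shared it. At those peaks fold enrichment follows the tags alone, so tags and fold enrichment are not separate evidence.

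The DNA around the start of transcription is shown for Kitl, Flt1 and Vegfa, whose peaks began just downstream of a RefSeq start, and for the receptor genes Kdr and Tek, which had no peak. Each run is the RefSeq sequence of GRCm38.p6, the assembly behind mm10, in the direction of transcription, with 250 bases before the start and 50 from it on, and capitals mark CpG dinucleotides, the sites of DNA methylation.
Kitl (chr10:100015571-100015870, plus strand): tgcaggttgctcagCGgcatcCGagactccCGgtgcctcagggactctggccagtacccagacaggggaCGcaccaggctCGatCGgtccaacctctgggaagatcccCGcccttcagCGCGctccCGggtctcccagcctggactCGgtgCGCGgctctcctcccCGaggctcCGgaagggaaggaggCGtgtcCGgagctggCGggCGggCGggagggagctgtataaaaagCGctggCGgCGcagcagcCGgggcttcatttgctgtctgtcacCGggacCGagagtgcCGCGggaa
Flt1 (chr5:147725962-147726261, minus strand): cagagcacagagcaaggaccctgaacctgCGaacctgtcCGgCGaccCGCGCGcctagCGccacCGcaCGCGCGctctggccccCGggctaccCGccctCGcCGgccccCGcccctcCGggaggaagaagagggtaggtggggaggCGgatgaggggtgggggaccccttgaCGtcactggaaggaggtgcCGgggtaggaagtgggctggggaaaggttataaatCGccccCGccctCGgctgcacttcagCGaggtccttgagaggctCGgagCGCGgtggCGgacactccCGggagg
Vegfa (chr17:46032328-46032627, minus strand): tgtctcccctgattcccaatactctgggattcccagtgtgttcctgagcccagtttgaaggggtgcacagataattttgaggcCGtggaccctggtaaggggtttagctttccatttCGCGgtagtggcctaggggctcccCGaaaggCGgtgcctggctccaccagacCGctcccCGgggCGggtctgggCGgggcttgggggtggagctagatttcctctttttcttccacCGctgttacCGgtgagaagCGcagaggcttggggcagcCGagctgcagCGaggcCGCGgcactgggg
Kdr (chr5:75978406-75978705, minus strand): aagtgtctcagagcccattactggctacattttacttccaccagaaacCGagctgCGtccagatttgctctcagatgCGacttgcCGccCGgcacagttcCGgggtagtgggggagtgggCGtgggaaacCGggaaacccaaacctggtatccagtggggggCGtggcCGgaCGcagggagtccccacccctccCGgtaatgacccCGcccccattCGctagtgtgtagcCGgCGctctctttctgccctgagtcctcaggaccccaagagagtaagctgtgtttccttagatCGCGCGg
Tek (chr4:94739039-94739338, plus strand): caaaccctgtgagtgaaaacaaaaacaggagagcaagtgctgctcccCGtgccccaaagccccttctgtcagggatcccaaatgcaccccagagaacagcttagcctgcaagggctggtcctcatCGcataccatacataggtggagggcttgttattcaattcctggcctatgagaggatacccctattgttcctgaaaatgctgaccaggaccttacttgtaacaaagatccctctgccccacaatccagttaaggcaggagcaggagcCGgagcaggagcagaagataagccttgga

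These runs differ in CpG content. Flt1 had 29 CpG dinucleotides in its 300 bases, Kitl 28, Kdr 19, Vegfa 16 and Tek 3. Of the other RefSeq starts of these genes, not printed, a second Vegfa start inside the gene had 10, Tie1 had 7 and Adgrl2 had 4. The median over 21263 starts of protein-coding genes was 13. It was 30 over the 100 starts with a KO PHF2 summit within 1 kb, 27 over the 1293 starts with a Ctrl PHF2 summit within 1 kb, and 12 over the 19948 starts with neither. A start near summits of both lists was counted in both sets. Kitl and Flt1 thus had counts near the medians of starts with a summit, and Tek, Tie1 and Adgrl2 counts below the median of starts without one. Adgrl2 did have peaks, but their summits lay at least 32378 bases from its listed start. Kdr, with no peak, had more CpG dinucleotides than Vegfa, with one. RefSeq starts were listed for 7 of the 10 genes. Cdh5, Pecam1 and Thbd had no entry.

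**Figure D1:**
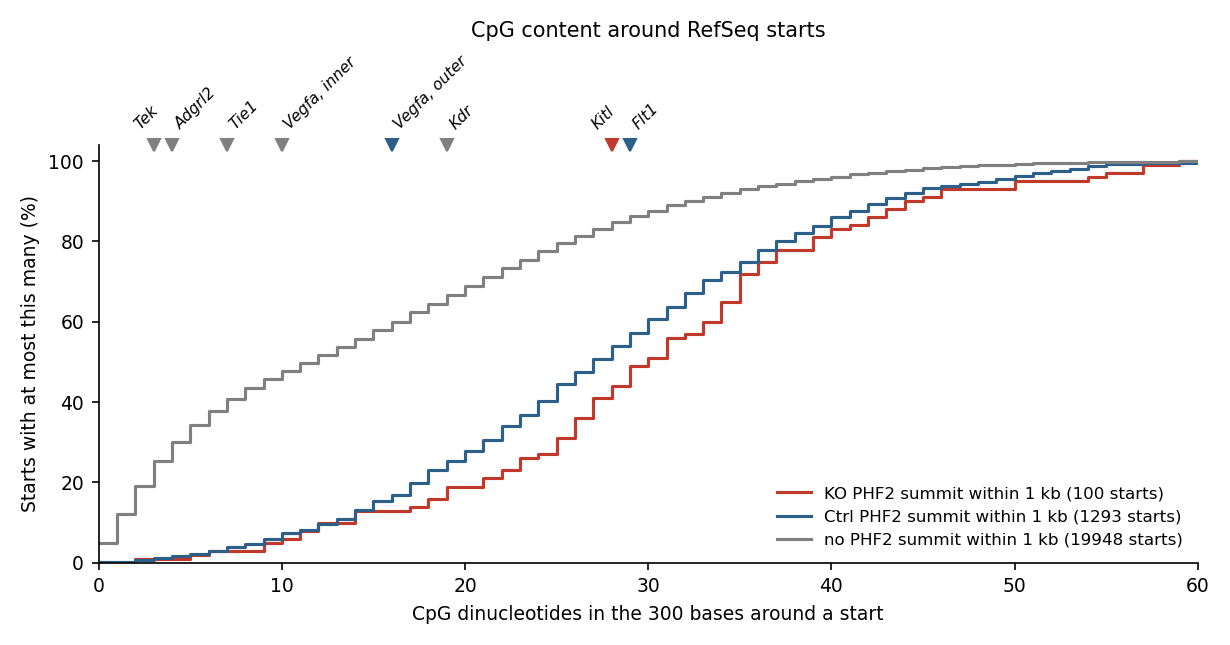
Cumulative share of RefSeq starts (vertical axis, %) by the number of CpG dinucleotides in the 300 bases around the start (horizontal axis), for starts with a KO PHF2 summit within 1 kb (red), with a Ctrl PHF2 summit within 1 kb (blue) and with neither (grey). Triangles mark the 8 starts of 7 genes in the same colours: Kitl (28) and Flt1 (29) sit near the medians of 30 and 27 of starts with a summit, and Tek (3), Adgrl2 (4) and Tie1 (7) sit under the median of 12 of starts with neither. Vegfa (16, at the start with a Ctrl summit) and Kdr (19, with neither) sit between the medians of 12 and 27. The Adgrl2 start is grey because the summits of its peaks lay at least 32378 bases away.

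The GC box GGGCGG, searched on both strands, was found in 46.2% of all 300-base runs, in 79.0% of those with a KO PHF2 summit and in 75.2% of those with a Ctrl PHF2 summit. Kitl and Flt1 held 3 matches each, Vegfa 2 and Kdr 2, and the second Vegfa start 1, while Tek, Tie1 and Adgrl2 held 0. The TATA box TATAAA, also on both strands, was found once each at Kitl, Flt1 and Adgrl2, and in 12.6% of all runs. The sequence TTCCGG, the only form of the ETS factor site that was searched, was found once each at Kitl and Kdr, and in 18.7% of all runs. Shorter forms that hold the core TTCC alone were not counted. The E-box CACGTG was found at none of these starts and in 7.84% of all runs. The sequence ACGTG, the only form of the hypoxia response core that was searched, lies within the E-box. It was found once, at the second Vegfa start, and in 20.9% of all runs. A match describes letters in these windows only.

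Among the ligands, Kitl had a peak in the KO list and not in the Ctrl list. Kitl (Gene ID 17311, chr10:100015615-100100416 in mm10) encodes KIT ligand, also called stem cell factor. Its KO PHF2 peak at chr10:100015952-100016663 was 712 bp wide, with a fold enrichment of 10.3 and 21 tags (13.0 to 32.1) at the summit. Among the 161 KO PHF2 peaks it ranked 8 by fold enrichment and 31 by width. The peak ran from 131 to 842 bases downstream of the Kitl start, with its summit at 592, so it began after the printed run ended. The nearest Ctrl PHF2 peak lay 750261 bp away, in Dusp6. The Ctrl list therefore had no peak near this site, and how many Ctrl tags lay there was not measured.

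Vegfa, the other ligand, had peaks in the Ctrl list and not in the KO list. Vegfa (Gene ID 22339, chr17:46016993-46032377, minus strand) had a Ctrl PHF2 peak of 2147 bp at chr17:46030167-46032313, with a fold enrichment of 7.64 and 22 tags (13.8 to 33.3). It ranked 35 of 1621 by width and 363 by fold enrichment, so it stood out by its width more than by its height. It reached from 64 to 2210 bases downstream of the outer Vegfa start, with its summit at 973. A smaller Ctrl PHF2 peak of 326 bp at chr17:46028641-46028966, beyond a gap of 1200 bp, had a fold enrichment of 5.55 and 14 tags (7.65 to 23.5), below the list's median. The nearest KO PHF2 peak lay 7534758 bp from the gene, in Kat2b.

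Among the receptors, Adgrl2 had the widest and highest peaks and was the one gene of the 10 with peaks from both libraries. Adgrl2 (Gene ID 99633, chr3:148815586-148989096, minus strand) encodes latrophilin 2, an adhesion G protein-coupled receptor that binds FLRT and teneurin proteins. In the KO list it had a peak of 1378 bp at chr3:148987574-148988951, with a fold enrichment of 11.6 and 24 tags (15.4 to 35.7), and a peak of 765 bp at chr3:148989574-148990338, with 10.7 and 22 tags (13.8 to 33.3). By fold enrichment they ranked 2 and 5 of 161, the first tied with another peak, and by width 3 and 24. In the Ctrl list it had a peak of 3308 bp at chr3:148987320-148990627, with a fold enrichment of 11.9 and 35 tags (24.4 to 48.7), which ranked 31 of 1621 by fold enrichment and 6 by width. A second Ctrl peak of 292 bp at chr3:148986810-148987101 had 5.34 and 11 tags (5.49 to 19.7). It ranked 1508 of 1621 by width, at the lowest width of the Ctrl PHF2 list, which other peaks shared.

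At Adgrl2 both KO peaks lay wholly inside the wide Ctrl peak and covered 64.8% of it (2143 bp). The Ctrl summit fell in the 622 bp between the KO peaks, 492 bp from one KO summit and 747 bp from the other. Tags at these summits, 24 and 22 in KO and 35 in Ctrl, come from libraries of unknown read totals and from different positions, and their heights were not compared. The second, small Ctrl peak touched no KO peak, the nearest being 472 bp away. It was separated from the wide Ctrl peak by a gap of only 218 bp. All 4 peaks straddled or neighboured the upper end of the annotated gene, which is its 5' end on the minus strand. The RefSeq start listed for Adgrl2 lies inside the gene, and the KO summits lay 33919 and 35158 bases, and the Ctrl summits 32378 and 34666 bases, upstream of it. The low CpG content of that start therefore does not describe the DNA under these peaks.

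**Figure D2:**
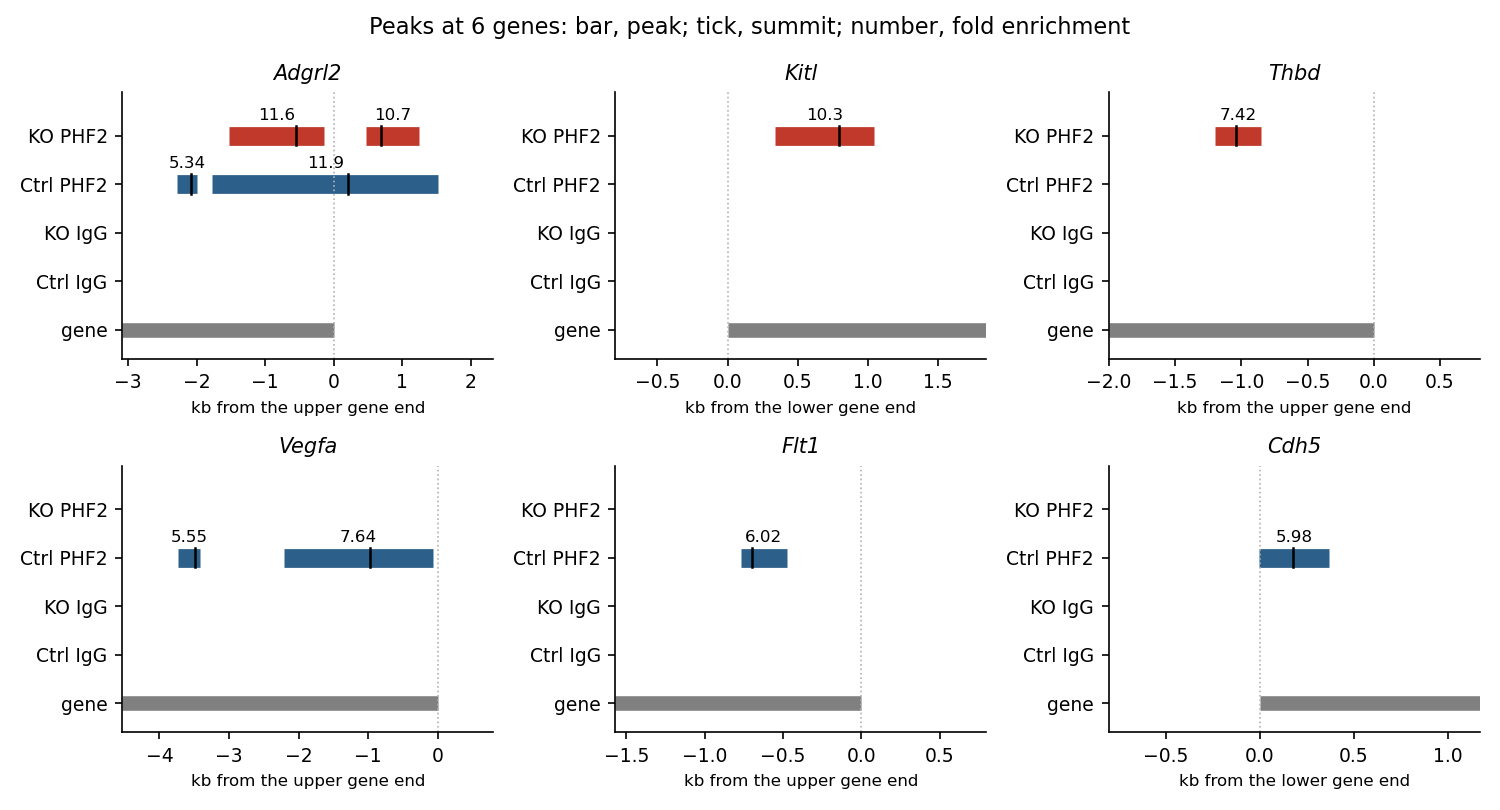
Peaks at 6 genes along the chromosome, in kb from the gene end nearest to the strongest summit (dotted line), with rows for KO PHF2 (red), Ctrl PHF2 (blue), KO IgG, Ctrl IgG and the gene body (grey, cut at the panel's edge). Bars are peaks, black ticks summits and numbers the authors' fold enrichment. Both KO peaks at Adgrl2 (11.6 and 10.7) fall within the span of the wide Ctrl peak (11.9). Kitl and Thbd have KO peaks only, Vegfa, Flt1 and Cdh5 have Ctrl peaks only, and the IgG rows are empty.

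The VEGF receptor genes differed from each other. Flt1 (Gene ID 14254, chr5:147561604-147726438, minus strand) encodes VEGF receptor FLT1, which binds VEGF-A tightly and limits how much of it reaches KDR. It had a Ctrl PHF2 peak of 296 bp at chr5:147725669-147725964, with a fold enrichment of 6.02 and 17 tags (9.90 to 27.2). The peak ran from 47 to 342 bases downstream of the start, with its summit at 268, and just met the end of the printed run. It was narrow, since 8.33% of Ctrl PHF2 peaks were narrower, and its fold enrichment was under the list's median of 6.37. The nearest KO PHF2 peak to the gene lay 130386 bp away, in Pan3. Kdr (Gene ID 16542, chr5:75932827-75979072, minus strand), which encodes the main signalling receptor for VEGF-A, had no peak. Its nearest KO PHF2 peak lay 325657 bp away, in Clock, and its nearest Ctrl PHF2 peak 1839291 bp away.

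Neither gene of the Tie receptor pair had a peak. Tek (Gene ID 21687, chr4:94739086-94874976, plus strand) encodes the angiopoietin receptor TIE2. Its nearest KO PHF2 peak was 2902554 bp away, in Nfia, and its nearest Ctrl PHF2 peak 174880 bp away, the peak over Jun. Tie1 (Gene ID 21846, chr4:118471191-118489849, minus strand) had its nearest KO PHF2 peak at 11559325 bp, in Ssbp3, and its nearest Ctrl PHF2 peak at 1912988 bp, in Gpbp1l1. An IgG peak lay closer to Tie1 than any PHF2 peak, at 57400 bp in the KO IgG list and 57374 bp in the Ctrl IgG list.

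Among the surface genes, Cdh5 had a peak in the Ctrl list, Thbd in the KO list and Pecam1 in neither. Thbd (Gene ID 21824, chr2:148404471-148408188) encodes thrombomodulin, which on the vessel wall turns thrombin into an activator of the anticoagulant protein C. Its KO PHF2 peak of 352 bp at chr2:148406986-148407337 had a fold enrichment of 7.42 and 18 tags (10.7 to 28.4), and ranked 42 of 161 by fold enrichment and 123 by width. The summit lay inside the gene, 1043 bp from its upper end. Cdh5 (Gene ID 12562, chr8:104101613-104144504) encodes VE-cadherin, the adhesion protein of endothelial junctions. Its Ctrl PHF2 peak of 375 bp at chr8:104101608-104101982 covered the lower end of the gene, with its summit 175 bp inside, a fold enrichment of 5.98 and 11 tags (5.49 to 19.7). Exactly that fold enrichment was listed for 52 Ctrl PHF2 peaks. Pecam1 (Gene ID 18613, chr11:106654213-106715281), whose product joins endothelial cells to each other, had no peak, the nearest being a Ctrl PHF2 peak 166380 bp away, in Ern1.

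Set side by side within their lists, the KO peaks at these genes were above the median fold enrichment and the Ctrl peaks were of 2 kinds. The genes were listed with these peaks already known, so this is a description and not a test. Of the 4 KO peaks, 2 were neighbours at Adgrl2, with a gap of 622 bp. The 4 KO peaks had fold enrichments of 7.42 to 11.6, all above the KO list's median of 6.64, and widths of 352 to 1378 bp around a list median of 451 bp. Of the 6 Ctrl peaks, those of 2147 bp at Vegfa and 3308 bp at Adgrl2 were above the Ctrl list's medians of 6.37 in fold enrichment and 505 bp in width. The other 4, at Flt1, Cdh5, Vegfa and Adgrl2, were below both medians, at 5.34 to 6.02 and 292 to 375 bp. Peaks over 1 kb wide made up 4.97% of the KO list and 15.8% of the Ctrl list. Among the peaks at these genes there were 3, at Adgrl2 from each library and at Vegfa in Ctrl.

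**Figure D3:**
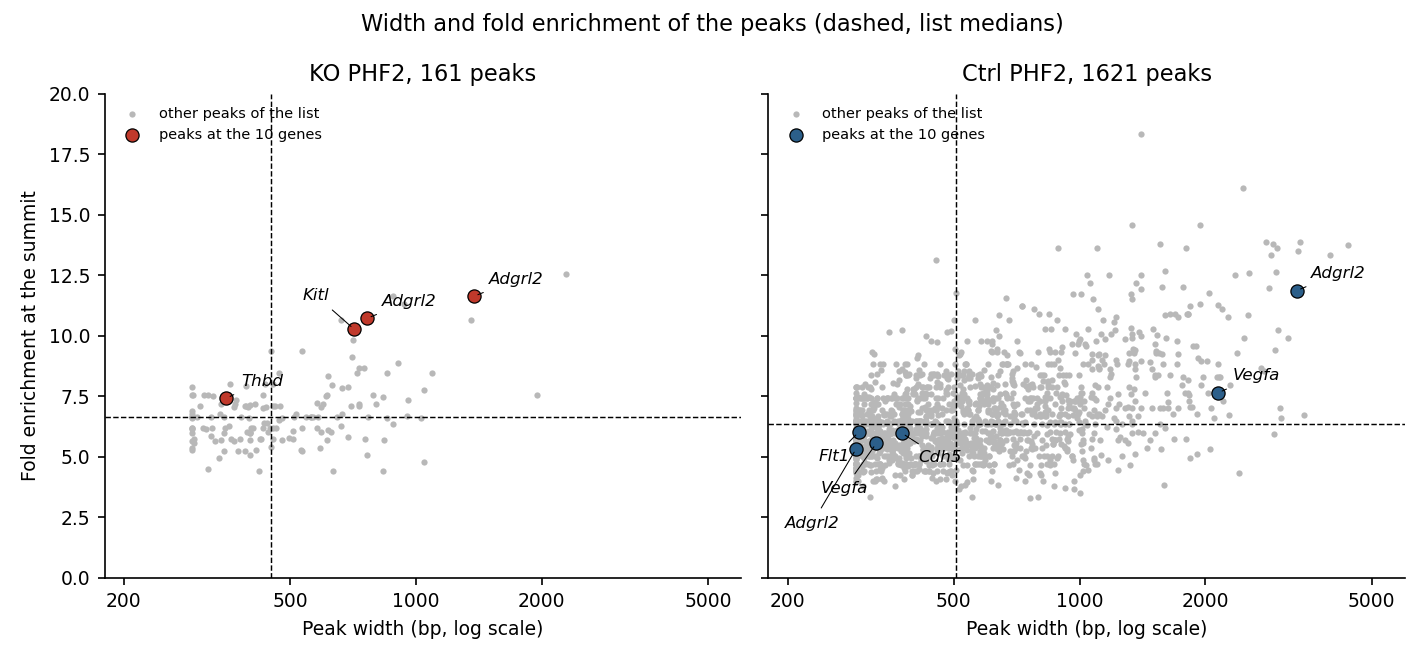
Fold enrichment at the summit (vertical axis) against peak width in bp (horizontal axis, log scale) for all 161 KO PHF2 peaks (left) and all 1621 Ctrl PHF2 peaks (right), with the peaks at the 10 genes in colour and dashed lines at the list medians. The 4 KO peaks lie above the median fold enrichment of 6.64, while in Ctrl the wide peaks at Adgrl2 and Vegfa stand apart from 4 narrow ones between 5.34 and 6.02.

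The tags give the precision behind these values. KO summits had 24 and 22 tags at Adgrl2, 21 at Kitl and 18 at Thbd, all above the median of 15. Ctrl summits had 35 and 11 at Adgrl2, 22 and 14 at Vegfa, 17 at Flt1 and 11 at Cdh5, on both sides of it. Tags were not compared between the libraries, whose read totals are unknown. At the 11 tags of Cdh5 and of the small Adgrl2 peak the Ctrl library was close to its lowest listed number, 8.

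**Figure D4:**
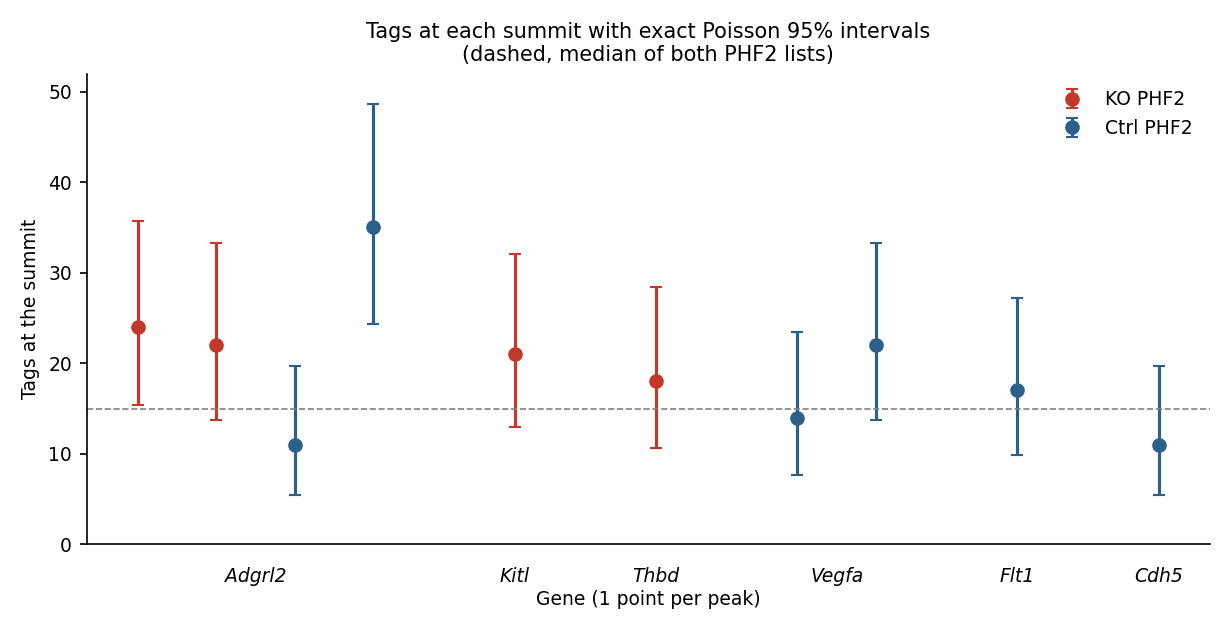
Tags at the summit (vertical axis) of each of the 10 peaks, grouped by gene, with KO PHF2 in red and Ctrl PHF2 in blue; bars are exact Poisson 95% intervals and the dashed line is the median of 15 tags of both lists. The wide Ctrl peak at Adgrl2 has 35 tags (24.4 to 48.7), and the Ctrl peaks with the fewest, at Adgrl2 and Cdh5, have 11 (5.49 to 19.7).

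By position, the peaks of Kitl and Flt1 and the wide peak of Vegfa lay just downstream of a RefSeq start. Over the KO PHF2 list, 113 of 154 summits on chromosomes with listed starts lay within 5 kb of one, with a median of 503 bases downstream (quartiles 204 and 877), and 86.7% were downstream. Kitl, at 592, was close to that median. Over the Ctrl list, 1199 of 1565 summits lay within 5 kb of a start, with a median of 251 bases downstream (quartiles 57.5 and 522), and 78.2% were downstream. Flt1, at 268, was close to the Ctrl median, and the wide Vegfa peak, at 973, lay beyond the upper quartile. The small Vegfa peak lay farther out, with its summit 3489 bases downstream of the outer start and 3725 bases upstream of the inner one.

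Long genes had a peak more often than short ones. Of the 5472 longest genes (44341 bp or more) 1.74% had a KO PHF2 peak and 14.1% a Ctrl PHF2 peak, and of the 5472 shortest (up to 5670 bp) 0.365% and 3.36%. Of the 10 genes, 6 were among the longest: Kitl, Flt1, Kdr, Tek, Adgrl2 and Pecam1. Kdr, Tek and Pecam1, with no peak, were thus long genes, and Thbd, with a KO peak, was among the shortest. The part of length in the counts was not tested.

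Further genes of vessels, niche signals and the pathways of these ligands and receptors were counted next, without the 10 themselves. Of 90 such genes in 11 lists, 8 had a KO PHF2 peak, all of them with a Ctrl PHF2 peak too, and 22 had a Ctrl PHF2 peak, shares of 8.89% and 24.4% beside 0.713% and 7.38% of all genes. The lists were drawn up with results of these data known and hold genes of many lengths, so these shares are descriptions. Where KO and Ctrl fold enrichments of a gene are given together below, they were not compared with each other.

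Both VEGF coreceptor genes had Ctrl peaks, and 1 of them KO peaks. Nrp1, which encodes neuropilin 1, had KO peaks up to a fold enrichment of 6.76 with 14 tags (7.65 to 23.5). These KO peaks overlapped a Ctrl peak of 2536 bp with 10.9 and 23 tags (14.6 to 34.5). Nrp2 had 3 Ctrl peaks, up to 8.55, and no KO peak. Flt4, the receptor gene of lymphatic vessels, had none, nor had the other ligand genes Vegfb, Vegfc, Vegfd and Pgf. Of the angiopoietin genes Angpt1, Angpt2 and Angpt4 none had a peak. Most protein-coding genes had none either, so these absences are no result about the genes. Ptprb, which encodes the phosphatase that acts on TIE2 and VE-cadherin, had a Ctrl peak inside the gene at 6.46 with 12 tags (6.20 to 21.0).

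Of endothelial transcription factors, the longest list, 2 of 18 genes had a KO peak and 8 of 18 a Ctrl peak. Nr2f2, which gives veins their identity, had 3 Ctrl peaks, up to a fold enrichment of 8.58. Epas1, which encodes the hypoxia factor HIF-2 alpha, had a KO peak at 6.63 with 14 tags (7.65 to 23.5) and a separate Ctrl peak at 8.55 with 27 tags (17.8 to 39.3). Ets1 had a KO peak at 5.28 beside a Ctrl peak at 6.99, which did not overlap. Ets2 (6.75), Erg (5.98) and Sox7 (5.98) had Ctrl peaks only. Of 11 further junction and surface genes, among them Cldn5, Emcn and Vwf, none had a peak in either PHF2 list, which is close to the share of all genes and is no result about them.

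Of 15 further niche signal genes, 2 had a KO peak and 4 a Ctrl peak. Spry1, a feedback inhibitor of growth factor receptors, had overlapping KO and Ctrl peaks of 8.45 and 9.65. Pdgfb, the signal by which endothelial cells draw in pericytes, had a KO peak at 7.04 and Ctrl peaks up to 6.99. The Notch ligand genes Jag1 (7.32) and Dll1 (5.70) had Ctrl peaks only. Kit itself had none, nor had Hgf, Igf1, Fgf2 or Cxcl12, like most protein-coding genes. Of 10 genes of oxygen sensing and VEGF induction, 1 had a KO peak (Epas1) and 4 a Ctrl peak, the other 3 being Ppargc1a (5.98), Egln1 (5.88) and Hif1a (4.95). Of 12 genes of VEGF receptor signalling, 2 had a KO peak and 3 a Ctrl peak: Dusp1 (4.39 in KO and 8.84 in Ctrl), Pik3r1 (7.32 in KO and 8.62 in Ctrl) and Rasa1 (5.37 in Ctrl).

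Among partners of Adgrl2, the ligand gene Flrt2 had overlapping peaks in both lists, with a fold enrichment of 7.55 in KO and 5.37 in Ctrl and 15 tags (8.40 to 24.7) at both summits. The other latrophilin genes Adgrl1, Adgrl3 and Adgrl4, and the ligand genes Flrt1, Flrt3 and Tenm1 to Tenm4, had none. Of 6 further genes of clotting control at the vessel wall, which include Procr, the receptor gene for protein C, none had a peak. Only 7.52% of all protein-coding genes had a PHF2 peak in either list, so these absences are no result about the genes.

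Markers of further cell types gave the following counts by the same rule. Satellite cell markers had 2 of 10 genes with a KO peak and 3 of 10 with a Ctrl peak: Hes1 (6.64 in KO and 5.95 in Ctrl), Notch1 (7.84 in KO and 4.23 in Ctrl) and Cxcr4 (4.72 in Ctrl). The KO and Ctrl peaks overlapped at Notch1 and did not overlap at Hes1. No other gene of that list had a PHF2 peak. Pax7, Myf5, Calcr and Vcam1, planned as the markers of these cells, were not among the 3 with a peak. Fibro-adipogenic markers had 0 of 8, and mural and Schwann markers 0 of 8, in both PHF2 lists. Immune markers had 0 of 6 in KO and 1 of 6 in Ctrl, through a peak near Cd68 that lies over its neighbour Mpdu1. Muscle fibre structure genes had 0 of 8 in KO and 2 of 8 in Ctrl: Des (9.98) and Ttn (5.55). Of all genes, 0.713% had a KO PHF2 peak and 7.38% a Ctrl PHF2 peak. The lists are short, so a count of 0 is no sign of absence.

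**Figure D5:**
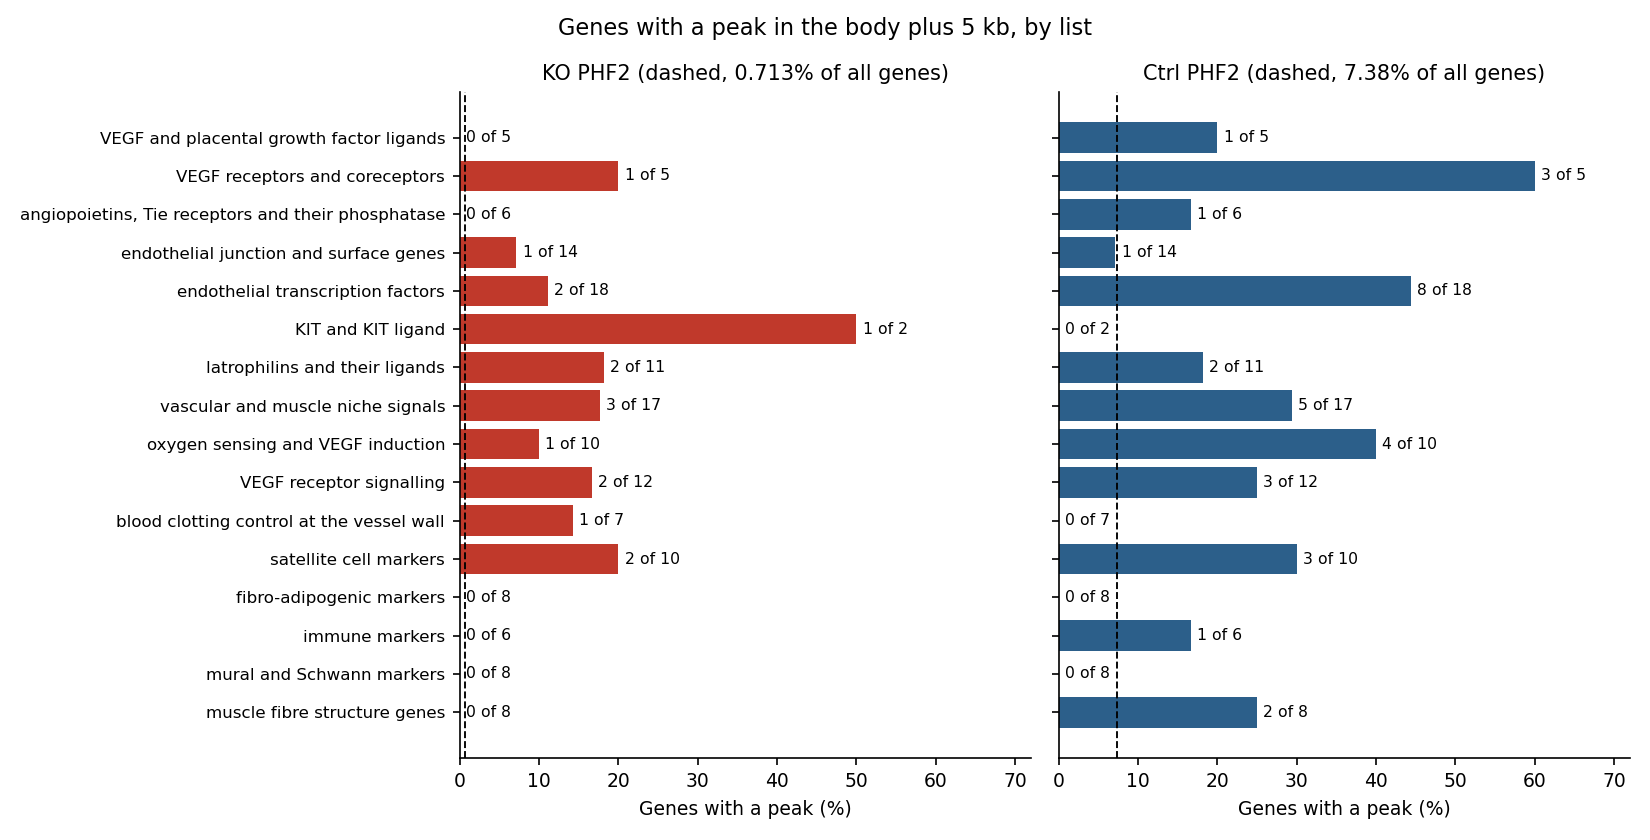
Share of each list's genes with a peak in the gene body plus 5 kb (horizontal axis, %), for KO PHF2 (left, red) and Ctrl PHF2 (right, blue), with the count of genes beside each bar, the 10 genes included where a list holds them. Dashed lines mark all protein-coding genes (0.713% and 7.38%); endothelial transcription factors have 2 of 18 genes in KO and 8 of 18 in Ctrl, and endothelial junction and surface genes have 1 of 14 in each.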

How the data were processed

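Per the labels, CUT&RUN was done on gastrocnemius muscle, with 1 library per genotype and antibody; sample titles gave the groups. Bowtie2, MACS2 and mm10 are named in the labels, per the submitters' processing notes. Versions, settings, duplicate handling and the control library: not given in the sources used here. The deposited narrowPeak lists hold, for each peak, the authors' fold enrichment (a ratio at the summit), their -log10 p and -log10 q, the summit, and a deposited score that repeats the q and was not used.

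The lowest -log10 q was 1.77 in KO PHF2 and 1.40 in Ctrl PHF2. Starts were written 1-based. Genes, starts and sequences came from RefSeq tables of GRCm38.p6 that give no exons, so exons and introns were not told apart. Overlap meant at least 1 bp. Tags were inferred, assuming the usual MACS2 formulas since the settings are not stated, from fold = (pileup + 1) / (background + 1) and the Poisson tail; with 1 factor per library (0.609 in KO, 0.649 in Ctrl) all 84 and 309 distinct pairs of values gave whole tags within 0.005. The method was run on data simulated from the same formulas, which cannot show whether the authors' settings follow them. PCR copies may be among the tags.

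The genes and lists were chosen with earlier results of these data known. Genes of a list with a PHF2 peak were named, up to 6 per list by the fold enrichment of the highest Ctrl PHF2 peak, else of the KO peak; genes without a peak were named as examples after their values were seen. No test across samples was possible. Alternatives were other windows, a stricter q, summits alone, merged peaks and other overlap rules. Software was Python 3.11.15 with SciPy 1.17.1, NumPy 2.4.6, matplotlib 3.10.9 and pandas 2.3.3.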

Additional observations from a re-analysis of the deposited data

How the results depend on the processing

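Of 41 alternatives to the main counts and values, 32 stayed within their limits and 9 moved; the limits were a factor of 1.5 for a count, the Wilson 95% interval for a share and no change at all for a median. Windows of 1 kb or 10 kb, a -log10 q of at least 3 and summits alone changed none of the counts of genes or peaks at the 10 genes. The number of Ctrl PHF2 peaks that overlapped a KO PHF2 peak was 1. It became 0 with a reciprocal overlap of at least 50% and 0 with summits within 200 bp, and 2 where a KO peak within 1 kb sufficed, all through Adgrl2. Merging peaks within 1 kb joined peaks at Adgrl2 and left 3 KO peaks, in place of 4, and 5 Ctrl peaks, in place of 6, and the medians at these genes became 712 bp and 10.3 in KO and 375 bp and 6.02 in Ctrl, in place of 738.5 bp and 10.5 in KO and 350.5 bp and 6.00 in Ctrl. All genes with a Ctrl PHF2 peak made up 6.88% with a 1 kb window and 8.06% with a 10 kb window. No paired analysis was possible because the groups have 1 library apiece, which also means that none could be omitted. Depth limits the absences: tags were not measured where no peak was listed.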

Other observations

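The peaks nearest to the 10 genes but outside their windows included a pair at Cd93 (Gene ID 17064, chr2:148436651-148443535), chosen after the values were seen. Cd93 encodes a lectin-like receptor of endothelial cells and is a neighbour of Thbd. A KO PHF2 peak of 426 bp (chr2:148442199-148442624) had 11 tags at its summit (5.49 to 19.7, exact Poisson 95% interval) and a fold enrichment of 5.73. A Ctrl PHF2 peak of 390 bp (chr2:148442102-148442491) had a fold enrichment of 5.55 and the same 11 tags. They shared 293 bp, and their summits were 20 bp apart. They lay 34011 bp and 33914 bp from Thbd, whose own peak was listed in KO alone.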
